A study of Mus musculus with 2 samples.

Results

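The retinoid and alcohol dehydrogenase genes, 8 in number, were followed through the epithelial layers of the mouse cervix. They were chosen by symbol, and all 8 were found among the 31053 genes of the count matrices. They are the alcohol dehydrogenases Adh1 and Adh7, the short-chain dehydrogenases Rdh10 and Dhrs9, the aldehyde dehydrogenases Aldh1a1 and Aldh1a3, and the binding proteins Rbp2 and Crabp2. Their levels in these libraries were known when they were chosen, so every difference given for them is a description without a test. The control library came from ovariectomised C57BL6/129 females that received no treatment. The progesterone library came from ovariectomised females of the same strain that were injected subcutaneously with estradiol (E2) in corn oil, 100 µg per day on 2 days, and then carried a 25 mg pellet with 21-day release, estimated at 1 mg daily. The protocol gives 2 catalogue numbers for that pellet and names its hormone only through the group's name, progesterone. All mice were 7 to 8 weeks old at ovariectomy, had 2 weeks to recover and were studied over 15 days, and cervices of 9 mice were pooled into each library. With 1 pooled library per group there is no replicate, and E2 priming, oil injections, the pellet and library preparation cannot be told apart from progesterone.

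Vitamin A reaches epithelia as retinol. Retinol is oxidised reversibly to retinal by microsomal short-chain dehydrogenases such as Rdh10 and, in the cytosol, by some alcohol dehydrogenases, and retinal is then oxidised irreversibly to retinoic acid by aldehyde dehydrogenases of the Aldh1a family. Cellular binding proteins carry these hydrophobic molecules, and retinoic acid acts through nuclear receptors of the RAR and RXR families until Cyp26 enzymes break it down. In the female tract, vitamin A is known for keeping columnar lining from turning squamous.

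Adh1 (ENSMUSG00000074207) and Adh7 (ENSMUSG00000055301) are neighbours on mouse chromosome 3 (build GRCm38, GENCODE annotation). Adh7 lies at chr3:138217760-138233382 and Adh1 at chr3:138260991-138290698, both on the plus strand, 27.6 kb apart with 0 protein-coding genes between them. They head a row of 6 Adh genes, Adh7, Adh1, Adh6a, Adh6b, Adh4 and Adh5, over 238 kb. Crabp2 (ENSMUSG00000004885) is also on chromosome 3, at chr3:87948666-87953376. Rbp2 (ENSMUSG00000032454) lies at chr9:98486115-98509781. Rdh10 (ENSMUSG00000025921) is at chr1:16105774-16133734, Dhrs9 (ENSMUSG00000027068) at chr2:69380445-69404533, Aldh1a3 (ENSMUSG00000015134) at chr7:66390890-66427517 on the minus strand, and Aldh1a1 (ENSMUSG00000053279) at chr19:20492715-20643465, 49.5 kb from its near copy Aldh1a7. Antisense genes overlap Adh1 (Gm16559, 0 control and 2 progesterone UMIs over all analysed cells), Adh7 (0610031O16Rik, 7 and 56 UMIs) and Aldh1a1 (C730002L08Rik, 0 and 0 UMIs). The counting strand is not given in the sources used here, so reads of a gene and its antisense partner may be mixed.

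RefSeq promoter windows (GRCm38.p6) were at hand for 5 of the 8 genes, Adh1, Adh7, Rbp2, Aldh1a1 and Dhrs9. Shown here is the stretch upstream of the start for 3 dehydrogenases and Rbp2, chosen by their levels summed over each layer. The 3 dehydrogenases were higher in the progesterone library in every layer, and Rbp2 was lower in the squamous layers and not in luminal cells. As given below, several of the squamous levels could not be told from background by the gauges used, which have limits of their own. Suprabasal Rbp2 was not lower within either suprabasal cluster. The RefSeq starts of Adh1 (base 138277585) and Rbp2 (base 98490537) lie inside the GENCODE genes, downstream of the gene starts given above. Each printed stretch ends before the first annotated exon base inside its window. Capitals mark the letters TGTTCT (reverse complement AGAACA), the core of the site shared by the progesterone and glucocorticoid receptors, and AGGTCA (reverse complement TGACCT), the core of sites of retinoic acid and other nuclear receptors.
Adh7, chr3:138217523-138217759, plus strand: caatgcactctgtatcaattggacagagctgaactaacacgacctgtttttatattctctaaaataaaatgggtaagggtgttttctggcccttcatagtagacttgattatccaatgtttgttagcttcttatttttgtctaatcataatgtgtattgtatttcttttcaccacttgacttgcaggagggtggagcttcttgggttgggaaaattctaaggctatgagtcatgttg
Adh1, chr3:138277335-138277493, plus strand: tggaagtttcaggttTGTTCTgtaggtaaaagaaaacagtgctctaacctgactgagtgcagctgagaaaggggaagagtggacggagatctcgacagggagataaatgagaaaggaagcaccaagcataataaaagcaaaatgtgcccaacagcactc
Dhrs9, chr2:69380212-69380444, plus strand: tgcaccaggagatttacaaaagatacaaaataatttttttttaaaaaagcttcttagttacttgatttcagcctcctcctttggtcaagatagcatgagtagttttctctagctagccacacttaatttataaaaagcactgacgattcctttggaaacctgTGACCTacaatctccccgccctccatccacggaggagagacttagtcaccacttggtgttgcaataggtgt
Rbp2, chr9:98490287-98490536, plus strand: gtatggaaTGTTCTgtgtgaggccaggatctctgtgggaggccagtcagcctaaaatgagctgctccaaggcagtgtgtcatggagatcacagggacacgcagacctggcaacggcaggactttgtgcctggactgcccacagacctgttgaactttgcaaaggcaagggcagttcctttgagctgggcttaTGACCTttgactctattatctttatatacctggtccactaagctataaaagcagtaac
Both strands of the 250 bases before each start were searched. Adh1 had TGTTCT beginning 235 bases before its start, Dhrs9 had TGACCT at 88 bases, Rbp2 had TGTTCT at 242 and TGACCT at 58 bases, and Adh7 had neither. No match overlapped another. Of 32851 RefSeq windows of the same 250 bases, 16.1% held TGTTCT or its complement and 14.02% held AGGTCA or its complement. A match of 6 letters is a description of the sequence, and binding was not measured.

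Levels are counts of unique molecular identifiers (UMIs, 1 per captured transcript) summed over the cells of a layer and scaled to a total of 1000000 (CPM). The chemistry reads transcript 3′ ends, so levels were not divided by length. Levels of the 8 genes are compared within a gene and not between genes. Intervals in brackets are 95% intervals for counting error only. The control library held 4579 analysed cells with a median of 3733 UMIs, and the progesterone library 8541 cells with a median of 4151 UMIs; 19 barcodes occurred in both libraries. Cells were clustered without the 8 genes and without the 82 other retinoid and dehydrogenase genes, and clusters were named from markers. Basal squamous-like cells (1014 control, 3052 progesterone) had Krt14 as their highest basal marker, at 21985 and 5912 CPM. Krt14 was higher still in suprabasal cells, at 47740 and 8203 CPM, as were Krt5 and the summed basal markers. Trp63 was higher in basal cells, at 181 and 237 CPM against 81.2 and 89.6 CPM in suprabasal ones. So were Col17a1, Itgb4, Dst and Krt15, and Itga6 in the control library only. Suprabasal squamous-like cells (514 and 1237) carried Krtdap at 2344 and 625 CPM and Krt10 at 698 and 539 CPM. Of the other suprabasal markers, Krt1 (197 and 9.89 CPM), Dsg1a (133 and 1.71 CPM), Sbsn, Lypd3 and Calml3 were lower in the progesterone library. Krt13 and Krt4 were higher. Krt13 and Krt4 in the control and Calml3 and Krt1 in the progesterone library were higher in luminal than in suprabasal cells. Luminal-like cells (240 and 1873) carried Krt18 at 2851 and 2407 CPM, Krt8 at 3006 and 863 CPM and Epcam at 1199 and 1676 CPM. Of the other luminal markers, Krt19, Krt7, Cldn3, Cldn4 and Elf3 were lower in the progesterone library and Ehf was higher. Krt13, a suprabasal marker, stood at 5057 and 1366 CPM in these cells, above every luminal marker in the control library.

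The libraries filled these layers with different clusters. Most control suprabasal cells were in cluster 6 (380 cells, led by Krt16 and Krt6b) and most progesterone ones in cluster 0 (1143 cells, led by Krt10). Control luminal cells were in cluster 14 (230 cells, led by Psca), and progesterone luminal cells in clusters 18 (900 cells, led by Agr2) and 23 (921 cells, led by Clca1). Control basal cells were mainly in clusters 7 and 3 (453 and 424 cells), progesterone basal cells in clusters 3 and 10 (1505 and 1295 cells). A further 1358 control and 1128 progesterone cells were in unnamed clusters, and 719 control and 37 progesterone cells in a squamous cluster without a layer.

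Adh7, the class IV alcohol dehydrogenase known for its activity on retinol, was higher in the progesterone library in all 3 layers. In suprabasal cells it stood at 17.5 CPM (64 UMIs) in the control and 213 CPM (1741 UMIs) in the progesterone library, 12.1-fold higher [9.46 to 15.8]. In basal cells it stood at 17.5 and 102 CPM, 5.81-fold higher [4.55 to 7.54], and in luminal cells at 32.4 and 143 CPM, 4.40-fold higher [2.99 to 6.76]. With progesterone the order of layers was suprabasal, luminal, basal, and no interval of these levels overlapped its neighbour. In the control library luminal was the highest at [21.2 to 47.5], an interval that overlapped both squamous ones.

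Adh7 RNA was also read in cells that should lack it. Neutrophil-like cells, used here to gauge free RNA, had no Adh7 UMI without progesterone (0 UMIs, a limit of 13.7 CPM) and 45.2 CPM [26.8 to 71.4] with it. After thinning each cell to 500 UMIs, Adh7 was found in 1.81% [0.783 to 3.53] of progesterone neutrophil-like cells, 4.95% [4.21 to 5.78] of basal, 8.89% [7.37 to 10.6] of suprabasal and 7.69% [6.52 to 8.99] of luminal cells. In macrophage-like cells, a second gauge, Adh7 had 0 UMIs without and 94.4 CPM [76.5 to 115] with progesterone, beside Krt14, a basal keratin, at 729 and 3628 CPM. It was found in 2.99% [1.56 to 5.17] of the progesterone ones at 500 UMIs. The suprabasal and luminal shares stood above both gauges, while the basal share stood above the neutrophil-like one and overlapped the macrophage-like one. The progesterone basal level of 102 CPM also lay within the macrophage-like interval, so basal Adh7 could not be told from that gauge. With progesterone, the 8 basal markers summed to 7853 CPM in macrophage-like, 2068 CPM in neutrophil-like and 13152 CPM in basal cells. The macrophage-like gauge thus held much basal-cell RNA and cannot decide whether basal Adh7 is background. Unthinned shares were 28.8% in basal, 55.8% in suprabasal and 38.1% in luminal cells, whose median depths were 4308, 6251 and 4858 UMIs against 776 UMIs in neutrophil-like cells.

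Adh1, the class I alcohol dehydrogenase best known from liver, was mainly luminal. Luminal cells held 49.0% of its control UMIs and 59.5% of its progesterone UMIs. Its luminal level was 92.3 CPM (74 UMIs) in the control and 150 CPM (1414 UMIs) in the progesterone library, 1.63-fold higher [1.29 to 2.09]. In suprabasal cells it was read at 1.91 and 48.9 CPM, 25.6-fold higher [12.3 to 64.0], from 7 control UMIs. In basal cells it was read at 4.96 and 25.2 CPM, 5.08-fold higher [3.20 to 8.53]. The 2 squamous layers were thus far below luminal cells in the control library and nearer to them with progesterone. Neutrophil-like cells had 0 control UMIs and 20.1 CPM [8.67 to 39.6] with progesterone, which overlapped the basal level. In cells thinned to 500 UMIs the share was 1.08% [0.745 to 1.52] of progesterone basal and 0.677% [0.140 to 1.97] of neutrophil-like cells. By these shares basal Adh1 could not be told from background, while 6.94% [5.83 to 8.19] of luminal cells stood above it. For suprabasal cells that share was 2.02% [1.31 to 2.97], which overlapped the neutrophil-like one. Progesterone basal cells held 350 Adh1 UMIs in 3052 cells (median depth 4308 UMIs) and neutrophil-like ones 8 in 443 (median depth 776 UMIs). Free RNA per cell was not estimated, so shares at equal depth do not settle whether squamous Adh1 is background. The 9 luminal markers summed to 950 and 2495 CPM in suprabasal and 1037 and 1356 CPM in basal cells of the control and progesterone libraries, and their part in squamous Adh1 and Adh7 was not tested.

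Dhrs9, a short-chain dehydrogenase that acts on retinol and on hydroxysteroids, was low in the control epithelium and higher with progesterone. It went from 2.87 CPM (11 UMIs) to 25.6 CPM (356 UMIs) in basal cells, 8.92-fold higher [4.92 to 18.03]. It stood at 9.98 CPM (8 UMIs) and 40.7 CPM (383 UMIs) in luminal cells, 4.08-fold higher [2.05 to 9.52]. Suprabasal cells had 0.547 CPM (2 UMIs) and 9.89 CPM (81 UMIs), a ratio of 18.1 [4.84 to 152]. Its highest levels were outside the epithelium, in neutrophil-like cells, at 178 CPM [127 to 244] and 216 CPM [173 to 267], whose intervals overlapped. The 6 neutrophil markers, all detected in each layer, summed to 90.6, 238 and 514 CPM in control basal, suprabasal and luminal cells and to 32.0, 17.8 and 34.6 CPM in progesterone ones, and their part in epithelial Dhrs9 was not tested. With neutrophil-like cells unusable as background for this gene, macrophage-like cells were taken: 0.499% [0.0605 to 1.79] of them had a Dhrs9 UMI at 500 UMIs, against 1.41% [1.02 to 1.89] of basal, 0.323% [0.0882 to 0.826] of suprabasal and 2.30% [1.67 to 3.08] of luminal cells, and all 3 intervals overlapped the macrophage-like one. The macrophage-like level with progesterone, 16.7 CPM [9.74 to 26.8], overlapped the suprabasal level of 9.89 CPM [7.85 to 12.3]. The basal level of 25.6 CPM also lay within the macrophage-like interval, and the luminal level of 40.7 CPM lay above it. By this gauge suprabasal and basal Dhrs9 could not be told from background. In the control library, however, macrophage-like cells had 9.30 CPM (3 UMIs), above the basal and suprabasal levels, and their ratio of 1.80 [0.520 to 9.57] includes 1. The progesterone ones also held much basal-cell RNA, as given above. The gauge therefore cannot decide whether squamous Dhrs9 is background.

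Rdh10, the membrane-bound retinol dehydrogenase, was a luminal gene in the progesterone library, where luminal cells held 80.9% of its UMIs. Its luminal level was 74.8 CPM [57.1 to 96.3] without and 125 CPM [118 to 133] with progesterone, 1.67-fold higher [1.29 to 2.21]. Basal cells had 8.88 and 6.84 CPM, a ratio of 0.770 [0.515 to 1.18], and suprabasal cells 4.38 and 7.45 CPM, a ratio of 1.70 [0.969 to 3.16]. Both squamous intervals include 1, but within basal cluster 3 Rdh10 stood at 24.9 CPM (18 UMIs) and 7.86 CPM (51 UMIs), 3.17-fold lower [1.74 to 5.52]. Progesterone neutrophil-like cells had 12.6 CPM [4.08 to 29.3], which overlapped the squamous levels of that library, and control ones had 0 UMIs. In the control library, 71.2% of Rdh10 UMIs were in unnamed clusters.

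Rbp2 is cellular retinol-binding protein type II, best known from the small intestine. Suprabasal cells held 59.2% of its control and 56.6% of its progesterone UMIs. With progesterone, its level in suprabasal cluster 0 (51.5 CPM) was close to that in luminal cluster 18, as given below. In unnamed cluster 11 of that library it stood at 75.1 CPM. Suprabasal cells had 149 CPM (544 UMIs) in the control and 67.4 CPM (552 UMIs) in the progesterone library, 2.21-fold lower [1.96 to 2.49]. Basal cells had 9.66 and 2.30 CPM, 4.20-fold lower [2.54 to 6.96]. Luminal cells had 17.5 and 26.8 CPM, and the ratio of 1.53 [0.898 to 2.85] includes 1. Neutrophil-like cells had 9.15 and 10.0 CPM, from 2 and 4 UMIs, and macrophage-like cells had 0 and 6 UMIs. The basal level was thus near the neutrophil-like one in the control and below it in the progesterone library, a gauge of few UMIs. Of the 37 basal control UMIs, 36 were in cluster 7, with 1 in cluster 3 and 0 in cluster 10. They were not spread evenly over the basal clusters, and the part of background in them was not tested.

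Crabp2, which carries retinoic acid to its nuclear receptors, was lower in the progesterone library in all 3 layers. In suprabasal cells it stood at 172 CPM (630 UMIs) and 60.7 CPM (497 UMIs), 2.84-fold lower [2.52 to 3.20]. In basal cells it stood at 64.0 and 26.2 CPM, 2.44-fold lower [2.07 to 2.88], and in luminal cells at 69.8 and 36.3 CPM, 1.93-fold lower [1.43 to 2.56]. The control order was suprabasal above luminal and basal, whose intervals overlapped. Of the 245 basal control UMIs, 216 were in cluster 7. Control luminal cells also carried more squamous RNA: the 8 basal markers summed to 8205 CPM in control and 1460 CPM in progesterone luminal cells and the 9 suprabasal markers to 5491 and 1957 CPM. The part of that RNA in luminal Crabp2 was not tested.

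The retinal-oxidising enzymes were scarce in the layers. Aldh1a1 had 0 UMIs in basal and suprabasal cells of both libraries and in control luminal cells, which allows up to 3.74 CPM in the last, and 11 UMIs in progesterone luminal cells, 1.17 CPM [0.584 to 2.09]. Of those 11 UMIs, 7 were in cluster 23 and 4 in the 39 cells of cluster 25. Aldh1a3 had 2 and 21 UMIs in basal, 4 and 14 in suprabasal and 6 and 9 in luminal cells. In luminal cells that was 7.48 CPM [2.75 to 16.3] without and 0.957 CPM [0.438 to 1.82] with progesterone. In fibroblast-like cells (77 and 114), Aldh1a3 stood at 44.6 CPM [12.2 to 114] and 30.7 CPM [15.9 to 53.7] and Aldh1a1 at 11.2 and 20.5 CPM, from 1 and 8 UMIs.

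**Figure D1:**
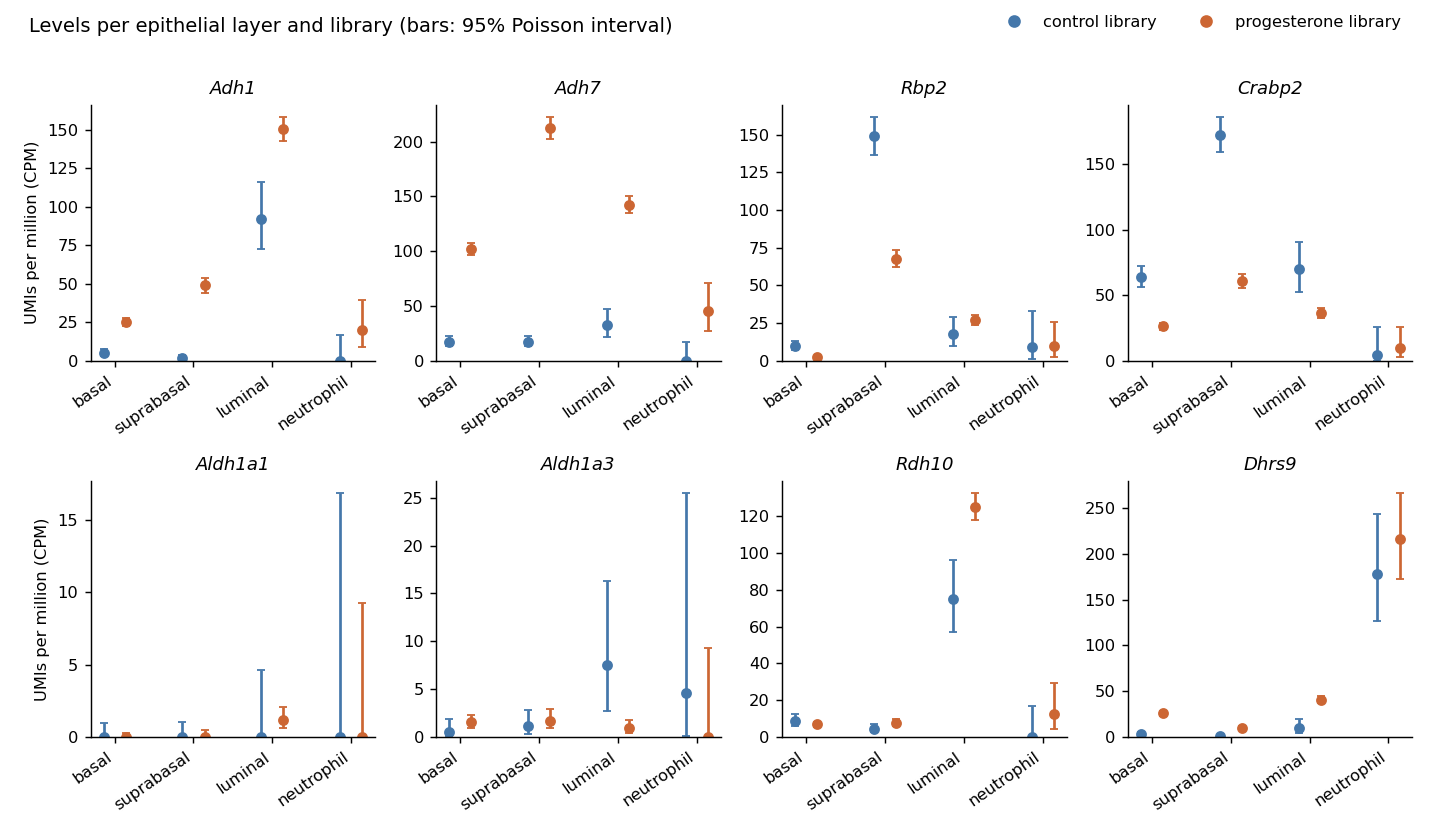
Level of each gene in CPM (linear axis, different in each panel) in basal, suprabasal and luminal cells and, as a gauge of free RNA, in neutrophil-like cells; points are the control and progesterone libraries and bars 95% Poisson intervals. Adh7 reaches 213 CPM in progesterone suprabasal cells, Rbp2 and Crabp2 peak in control suprabasal cells at 149 and 172 CPM, and Dhrs9 is highest in neutrophil-like cells.

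Read against all genes, the 8 genes stood as follows, where a gene needed at least 20 UMIs over both libraries and counted as different at 2-fold. In basal cells 7 genes were measured, 4 were higher (Adh1, Adh7, Dhrs9 and Aldh1a3, the last on 2 control UMIs with a ratio of 2.89 [0.707 to 25.5] that includes 1) and 2 lower (Rbp2 and Crabp2); of 11656 genes, 9.75% were higher and 6.35% lower. In suprabasal cells 6 were measured, 3 were higher (Adh1, Adh7 and Dhrs9) and 2 lower (Rbp2 and Crabp2); of 10714 genes, 23.3% were higher and 5.66% lower. In luminal cells 6 were measured, 2 were higher (Adh7 and Dhrs9) and 0 lower; of 11142 genes, 13.5% were higher and 6.83% lower. Counting either direction, 16.1%, 29.0% and 20.4% of all genes passed 2-fold in the 3 layers. The median log2 ratio was 1.24, 2.16 and 0.71 over the genes measured and 0.02, 0.37 and 0.07 over all genes. The choice of the genes used these contrasts, so nothing is read from the counts. Scaling to a total without mitochondrial, ribosomal protein and the 20 most abundant genes moved the median of all genes by 0.20, 0.20 and 0.11 on the log2 scale, and the higher share of basal calls from 60.6% to 75.7%.

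**Figure D2:**
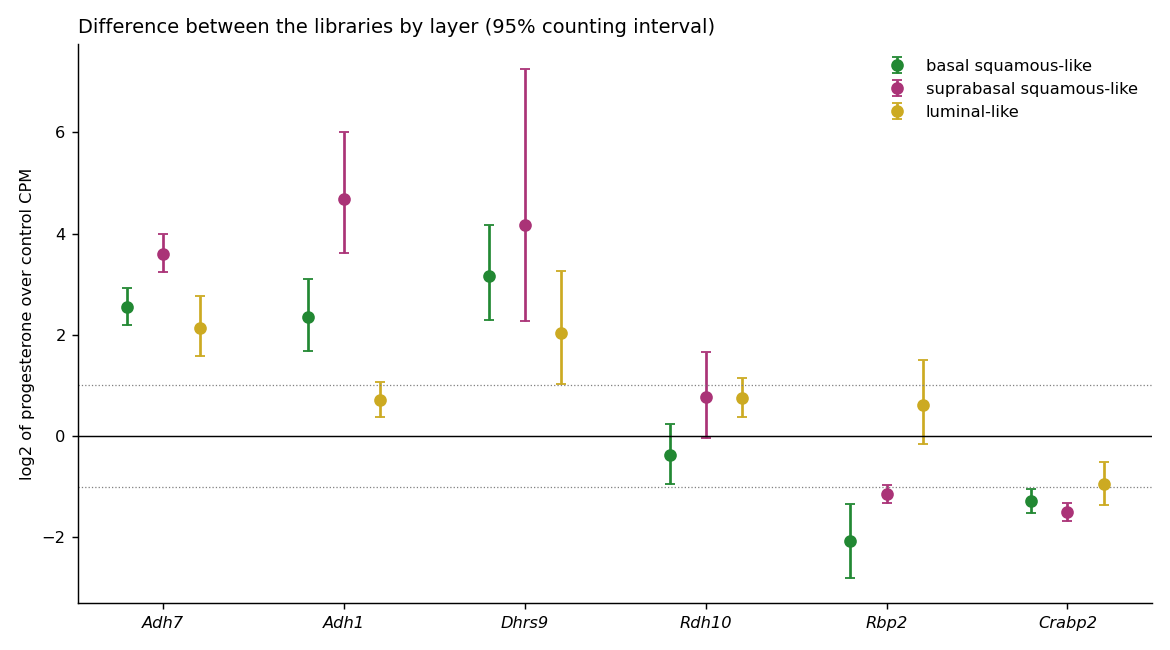
Log2 of the progesterone over control CPM for the 6 genes measured in every layer, by layer (colours), with 95% counting intervals; dotted lines mark 2-fold. Adh7, Adh1 and Dhrs9 lie above 0 in every layer, Crabp2 lies below it, and the luminal Rbp2 interval spans 0.

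Comparing cells within a cluster separated the genes. Adh7 was higher with progesterone in both suprabasal clusters, at 47.1 and 221 CPM in cluster 0 and at 12.9 and 137 CPM in cluster 6, and in basal cluster 3, at 45.7 and 128 CPM. In basal cluster 10 it stood at 45.3 and 69.9 CPM, a ratio of 1.54 [0.854 to 3.11] that includes 1. Adh1 was higher in cluster 0 (6.15 and 50.4 CPM, from 3 control UMIs) and in cluster 6 (1.26 and 36.0 CPM, from 4 control UMIs), whereas in cluster 3 it stood at 26.3 and 30.7 CPM, a ratio of 1.17 [0.727 to 1.98]. Cluster 3 held all 19 basal control UMIs of Adh1. Basal clusters 10 and 1 had 0 control UMIs of Adh1 and 17.8 CPM (111 UMIs) and 33.7 CPM (31 UMIs) with progesterone. With the control set to 3 counts, those levels were at least 1.44-fold and 1.21-fold higher. Their intervals began at 1.15 and 0.927. Dhrs9 had 0 control UMIs in cluster 3 and 25.7 CPM with progesterone, at least 6.20-fold higher when the control is set to 3 counts in that cluster. In cluster 10 it stood at 12.4 CPM (3 UMIs) and 27.0 CPM, a ratio of 2.19 [0.735 to 10.7] that includes 1.

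Rbp2, lower with progesterone in the suprabasal layer as a whole, was not lower within either of its clusters. In cluster 0 it stood at 26.6 CPM [14.2 to 45.5] without and 51.5 CPM [46.4 to 57.0] with progesterone, 1.93-fold higher [1.12 to 3.67]. In cluster 6 it stood at 168 CPM [154 to 183] and 207 CPM [178 to 241], a ratio of 1.24 [1.04 to 1.47]. Its log2 ratio in cluster 6, 0.31, equalled the median of all 8241 genes measured there, 0.31, whereas the 0.90 of cluster 0 stood beside a median of -0.06. Cluster 6 held 380 of 514 control and 94 of 1237 progesterone suprabasal cells, and the part of that make-up in the layer's ratio was not tested. Crabp2 remained lower in cluster 6, at 188 and 121 CPM, 1.55-fold lower [1.25 to 1.93], and stood at 73.7 and 53.8 CPM in cluster 0, a ratio of 0.730 [0.518 to 1.06]. In basal cluster 3 Crabp2 was at 16.6 and 26.8 CPM, a ratio of 1.62 [0.901 to 3.19]. In basal clusters 10 and 1 it stood at 45.3 and 22.8 CPM, a ratio of 0.504 [0.273 to 1.03], and at 55.7 and 35.9 CPM, a ratio of 0.645 [0.267 to 1.88]. Each of these basal intervals includes 1.

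**Figure D3:**
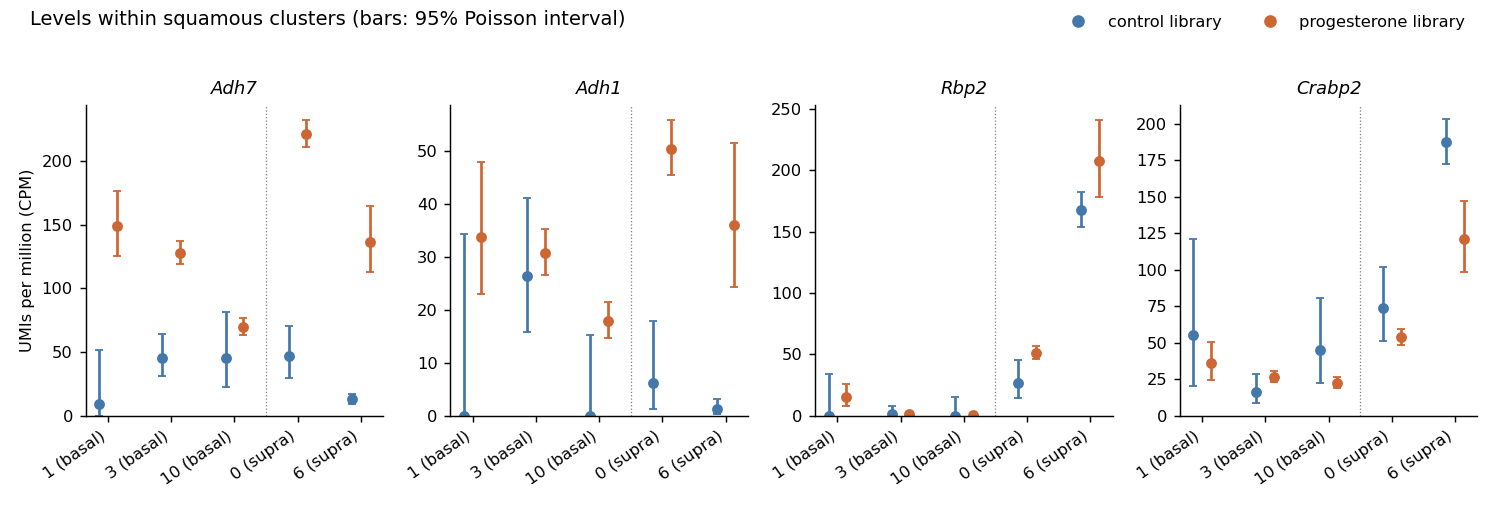
Levels of Adh7, Adh1, Rbp2 and Crabp2 in CPM (linear axes) within basal clusters 1, 3 and 10 and suprabasal clusters 0 and 6, with 95% Poisson intervals; the dotted line parts the layers. Adh7 is higher with progesterone in both suprabasal clusters, and Rbp2 stands higher in cluster 6 than in cluster 0 in both libraries.

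The luminal clusters differed from each other within the progesterone library. Rdh10 stood at 225 CPM [211 to 240] in the Clca1-led cluster 23, 38.3 CPM [33.0 to 44.3] in the Agr2-led cluster 18 and 81.1 CPM [54.3 to 116] in the small cluster 25, led by Prap1. Adh7 followed the same order of clusters 23 and 18, at 226 and 78.1 CPM, with 8.39 CPM in cluster 25. Rbp2 was the reverse, at 50.9 CPM [44.7 to 57.7] in cluster 18 and 2.13 CPM [0.975 to 4.05] in cluster 23. Adh1 stood at 139, 175 and 2.80 CPM in clusters 18, 23 and 25, and Dhrs9 at 38.5, 44.3 and 33.5 CPM, with overlapping intervals. Clusters 18, 23 and 25 held 6, 4 and 0 control cells, so their levels could not be compared between the libraries. The differences among them describe 1 library.

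In the control library the highest Rdh10 was in unnamed cluster 19 (87 cells, led by Psca), at 258 CPM [220 to 302], against 78.1 CPM [59.6 to 100] in luminal cluster 14 and 46.9 CPM [40.5 to 54.0] in unnamed cluster 5 (641 cells, led by Sprr2d). Clusters 5 and 19 also held Aldh1a3, at 14.9 CPM [11.4 to 19.1] and 35.8 CPM [22.4 to 54.1], and unnamed clusters together held 82.5% of all control Aldh1a3 UMIs. Both clusters carry luminal and other markers and were given no layer. With them counted as luminal, an alternative chosen after seeing the data, the luminal log2 ratio of Adh1 went from 0.69 to 2.99, that of Adh7 from 2.11 to 3.83 and that of Dhrs9 from 1.94 to 3.60, while that of Rdh10 was 0.73 in each case.

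**Figure D4:**
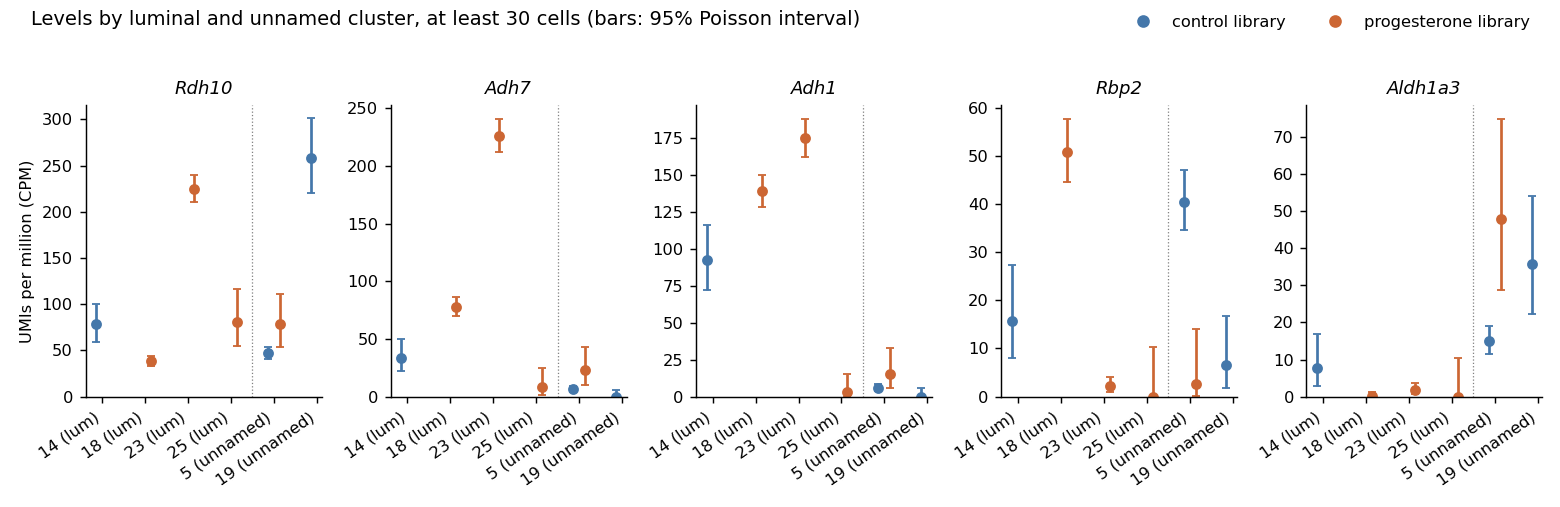
Levels of Rdh10, Adh7, Adh1, Rbp2 and Aldh1a3 in CPM (linear axes) in luminal clusters 14, 18, 23 and 25 and unnamed clusters 5 and 19, for clusters with at least 30 cells in a library, with 95% Poisson intervals. Rdh10 is highest in control cluster 19 and progesterone cluster 23, and Rbp2 is high in progesterone cluster 18 and near 0 in cluster 23.

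Single cells were compared after thinning to 2000 UMIs. At least 1 of the 8 genes was found in 39.1% [31.4 to 47.2] of control and 61.6% [59.2 to 63.9] of progesterone luminal cells, in 16.4% [13.6 to 19.6] and 29.4% [27.7 to 31.1] of basal cells and in 45.8% [41.0 to 50.7] and 51.1% [48.3 to 54.0] of suprabasal cells. Only 9 progesterone neutrophil-like cells reached that depth, and 3 of them (33.3% [7.49 to 70.1]) held at least 1 of the 8, an interval that overlaps every progesterone layer. In progesterone suprabasal cells, Adh7 was found in 44.8% [35.6 to 54.3] of the 116 cells with Adh1 and in 29.0% [26.4 to 31.8] of the 1095 without it. In luminal cells the same shares were 27.9% [23.6 to 32.5] and 22.1% [19.8 to 24.5], which overlapped. Rdh10 was found in 33.1% [28.4 to 38.0] of luminal cells with Adh7 and 19.3% [17.1 to 21.5] of those without, and in 4.92% [1.03 to 13.7] of luminal cells with Rbp2 and 23.2% [21.1 to 25.3] of those without. Rdh10 and Adh7 were both higher in cluster 23 than in cluster 18, and Rbp2 was higher in cluster 18. Cells of 1 library are not replicates, so the shares describe that library.

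The rest of the pathway was read from 7 lists, drawn up with earlier results of these data known. Of 81 genes found and reported, 47 were measured in basal cells with 8 higher and 6 lower at 2-fold, 44 in suprabasal cells with 11 higher and 7 lower, and 45 in luminal cells with 8 higher and 4 lower. Their median log2 ratio was 0.15, 0.29 and 0.09, near the 0.02, 0.37 and 0.07 of all genes. Over all genes, 9.75% were higher and 6.35% lower in basal, 23.3% and 5.66% in suprabasal and 13.5% and 6.83% in luminal cells. The listed genes were read by layer and not within clusters. The libraries filled the layers with different clusters, and the part of that make-up in these ratios was not tested.

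In uptake and storage, 2 of 5 measured genes were lower in basal cells, 1 of 4 was lower and 1 higher in suprabasal cells, and 2 of 6 were higher in luminal cells. Lrat, which esterifies retinol for storage, went from 26.1 to 5.97 CPM in basal cells, 4.37-fold lower [3.24 to 5.92], and from 27.4 to 3.05 CPM in suprabasal cells, 8.96-fold lower [5.74 to 14.5]. Dgat1, an acyltransferase, stood at 23.8 and 10.9 CPM in basal cells, 2.17-fold lower [1.66 to 2.84]. Rbp4, the retinol carrier of plasma, had 0 UMIs in control and 325 in progesterone luminal cells, at least 9.24-fold higher when the control is set to 3 counts in that layer.

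Of the other genes that convert retinol to retinal and back, 0 of 12 were higher and 1 lower in basal cells (Akr1b8, an aldo-keto reductase, 2.91-fold lower [1.99 to 4.25]), 2 were higher and 3 lower of 12 in suprabasal cells, and 2 of 9 were higher in luminal cells. Rdh12, which reduces retinal, went from 70.3 to 12.8 CPM in suprabasal cells, 5.49-fold lower [4.35 to 6.95]. Sdr16c5, a retinol dehydrogenase, had 43 control and 18 progesterone UMIs there, 5.35-fold lower [3.02 to 9.86]. Dhrs3, a retinal reductase known as a retinoic acid target, stood at 99.5 and 123 CPM in basal, 43.8 and 78.4 CPM in suprabasal and 267 and 230 CPM in luminal cells, within 2-fold in each. Adh5, at the far end of the Adh row, was read at 109 and 121 CPM in basal and at 79.1 and 114 CPM in suprabasal cells, with ratios of 1.11 [0.996 to 1.24] and 1.44 [1.26 to 1.65]. Adh4 had 0 UMIs in all 3 layers of both libraries. Of Aldh1a2, Aldh1a7 and Aldh8a1, the other enzymes listed for retinal oxidation, 0 reached 20 UMIs in any layer.

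Fabp5, a fatty acid-binding protein that also binds retinoic acid, was lower in every layer. It went from 19288 to 359 CPM in suprabasal cells, 53.7-fold lower [51.8 to 55.8], from 2218 to 266 CPM in basal cells, 8.34-fold lower [8.02 to 8.67], and from 130 to 13.2 CPM in luminal cells, 9.84-fold lower [7.51 to 12.9]. Fabp5 was among the 10 leading genes of cluster 6, which held 380 of 514 control and 94 of 1237 progesterone suprabasal cells. The part of that make-up in the suprabasal fold was not tested. Ugt2b34, a glucuronosyltransferase, had 3 control and 1176 progesterone UMIs in luminal cells, a ratio of 33.4 [11.4 to 162], and 1 and 44 UMIs in suprabasal cells, a ratio of 19.6 [3.34 to 793]. Cyp2s1, a cytochrome P450, had 0 control and 74 progesterone UMIs in luminal cells, at least 2.10-fold higher with the control at the floor of 3 counts. The breakdown enzymes Cyp26a1, Cyp26b1 and Cyp26c1 had 0 control UMIs in every layer and at most 5 progesterone UMIs, those of Cyp26a1 in luminal cells.

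The retinoic acid receptors were within 2-fold wherever they were measured. Rara stood at 14.4 and 16.1 CPM in basal, 15.0 and 23.7 in suprabasal and 27.4 and 20.7 in luminal cells, Rarg at 40.2 and 49.6, 29.8 and 34.8, and 24.9 and 29.8 CPM, and Rxra at 55.1 and 40.4, 44.9 and 38.0, and 57.4 and 40.1 CPM. Rarb reached 62 UMIs in progesterone luminal cells (6.24 and 6.59 CPM) and had 1 and 7 UMIs in suprabasal cells. Rxrb had 23.2 and 25.8, 22.7 and 27.6, and 24.9 and 24.2 CPM, and Rxrg had 0 UMIs in all layers. Among cofactors, Nrip1, a corepressor of nuclear receptors, was higher in each layer: 2.83-fold [2.60 to 3.09] in basal, 6.19-fold [5.54 to 6.94] in suprabasal and 2.01-fold [1.83 to 2.22] in luminal cells. Nr2f2 (COUP-TFII), an orphan nuclear receptor, was 3.71-fold higher [2.69 to 5.24] in suprabasal cells and within 2-fold in basal and luminal cells. The fatty acid receptor gene Ppard stood at 13.6 and 9.50 CPM in basal, 20.5 and 11.2 in suprabasal and 18.7 and 19.9 in luminal cells, and Nr2f1 had 0 UMIs in the squamous layers and 1 and 10 UMIs in luminal cells.

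Among textbook retinoic acid targets, 1 of 6 measured was higher and 0 lower in basal, 1 of 4 higher and 0 lower in suprabasal, and 0 of 6 higher or lower in luminal cells. Tgm2, a transglutaminase, went from 5.48 to 71.7 CPM in basal cells, 13.1-fold higher [8.50 to 21.2], but stood at 5.47 and 6.84 CPM in suprabasal and 364 and 313 CPM in luminal cells. Meis2, a homeobox gene, was 4.25-fold higher [3.82 to 4.75] in suprabasal cells, at 102 and 433 CPM.

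Other aldehyde dehydrogenases moved in both directions. In basal cells 6 of 14 measured were higher and 2 lower, in suprabasal cells 4 of 12 higher and 2 lower, and in luminal cells 1 of 13 higher and 3 lower. Aldh3a1, which clears aldehydes in cornea and stomach, stood at 36.0 and 223 CPM in basal cells, 6.20-fold higher [5.23 to 7.41], and at 32.6 and 321 CPM in suprabasal cells, 9.87-fold higher [8.21 to 11.97]. Aldh2, the mitochondrial enzyme that clears acetaldehyde made by alcohol dehydrogenases, was 2.23-fold higher [2.04 to 2.43] in basal and 3.14-fold higher [2.82 to 3.51] in suprabasal cells. Aldh6a1, of valine breakdown, was 3.14-fold higher [2.13 to 4.80] in basal cells and had 3 control UMIs in luminal cells, a ratio of 5.03 [1.69 to 24.6]. Aldh3b2 was lower in luminal cells, at 191 and 14.5 CPM, 13.2-fold lower [10.4 to 16.7], and in suprabasal cells, 4.88-fold lower [3.64 to 6.60]. Aldh3b1 was 2.76-fold lower [1.49 to 4.81] in luminal cells, where Aldh1l1 had 6 and 29 UMIs, a ratio of 0.412 [0.168 to 1.21], and Aldh1l2 had 14 and 7 UMIs in basal cells, 7.26-fold lower [2.74 to 21.2].

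**Figure D5:**
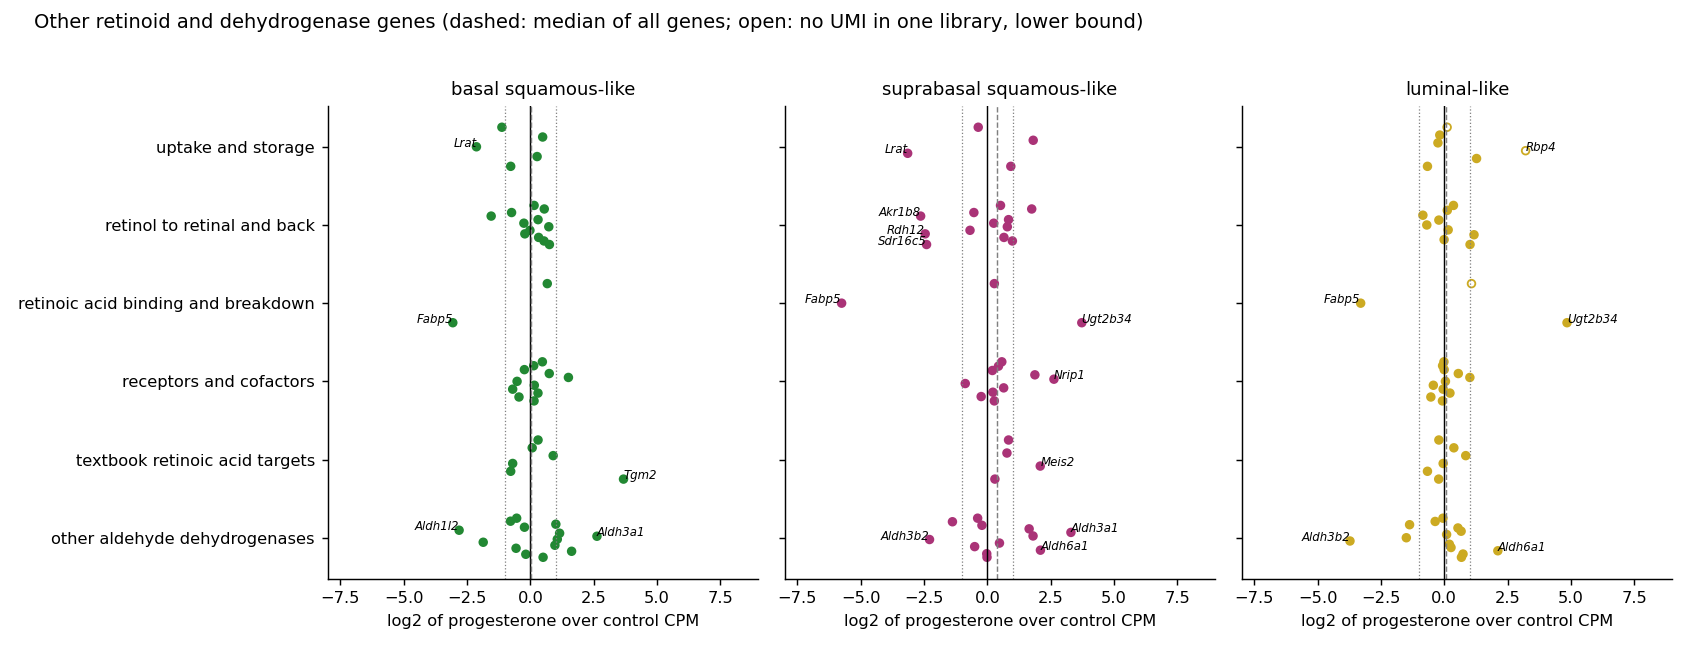
Log2 of the progesterone over control CPM for the listed retinoid and dehydrogenase genes with at least 20 UMIs, by list (rows) and layer (panels); each point is a gene, open points are lower bounds for genes with no UMI in one library, dotted lines mark 2-fold and the dashed line is the median of all genes. Fabp5 is far to the left in every layer, receptors and cofactors lie mostly within 2-fold, and genes beyond a log2 ratio of 2 in either direction are named.

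For each of the 8 genes, the 3 genes with the most alike pattern were taken by Pearson's r of log2(CPM + 10) over 15 points, each a cell class in 1 library with at least 50 cells, so points share a library and differ in depth. Adh1 was most like Casc4 (r = 0.90), Aldh2 (0.90) and F3 (0.89). Adh7 was most like Bcat1 (0.89), Slc14a1 (0.85) and Sv2b (0.84). Rdh10 was most like Ern2 (0.95), Muc20 (0.94) and Il18r1 (0.92), and Dhrs9 most like Chd2 (0.96), Btg2 (0.94) and Fbxl5 (0.94). Rbp2 was most like the desmosomal cadherin gene Dsc2 (0.92), Lypd3 (0.89) and Gm94 (0.88), and Crabp2 most like Sytl1 (0.95), Ly6d (0.95) and Mpzl2 (0.94). Aldh1a3 was most like Sned1, Fxyd1 and Serping1 (0.97, 0.97 and 0.96) and Aldh1a1 most like Arhgef25, Aox3 and Col6a1 (0.84, 0.81 and 0.81), both on few UMIs. Each name is among the highest of 6397 genes compared and is a description.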

How the data were processed

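Cells of the mouse cervix were read in 2 libraries made with a 10x Genomics 3′ kit, 1 per group. The authors deposited unnormalised UMI counts for each gene in each barcode, written as integers according to the matrix headers; Cell Ranger 3.0.2 and the build mm10 are named in the submitters' processing notes, and the annotation is not given in the sources used here. The control library held 5368 barcodes with 21658684 UMIs and the progesterone library 10853 with 44811069, and every barcode had at least 500 UMIs.

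A barcode was kept with 200 or more genes and no more than 20% of mitochondrial UMIs (4760 and 9221 passed). Doublets were scored with Scrublet in scanpy 1.11.5 and removed at 0.8% per 1000 cells (181 and 680). Cells were scaled to 10000 counts, log transformed and clustered by the Leiden method (resolution 1, 15 neighbours in 30 principal components of 2000 variable genes), leaving out mitochondrial genes, the 8 genes and 82 listed pathway genes, of which 1 is not reported here. Clusters were named from markers of 18 classes by the mean log2 marker ratio (at least 0.75, with a lead of 0.5 and 3 detected markers), and names are written as X-like.

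CPM were taken from the UMIs of all cells of a class in a library. Levels have exact Poisson, ratios conditional binomial and shares Clopper-Pearson 95% intervals, which cover counting error alone. No test was made, as each group has 1 library. Log2 ratios had 0.5 counts added, and a fold against 0 UMIs used a floor of 3 counts per layer or cluster. The calculations were tested on simulated data.

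The members and lists were chosen with earlier results of these data known. Named genes were the 8 members in every layer and, from the lists, up to 5 per layer and direction with at least 20 UMIs and a 2-fold difference, ranked by the interval bound nearest to 1, besides all receptors, Cyp26 genes and Dhrs3, and the 3 genes most like each member. Rdh12 aside, Adh4, Adh5 and the Aldh1a relatives were added after their values were seen. Gene positions came from GENCODE mouse release 21, which held 30934 of the 31053 identifiers.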

Additional observations from a re-analysis of the deposited data

How the results depend on the processing

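With 3 layers, the count of genes at least 2-fold apart was 6 in basal, 5 in suprabasal and 2 in luminal cells, beside 16.1%, 29.0% and 20.4% of all genes. The suprabasal count was 3 with a stricter cell filter, at Leiden resolution 2 and with layers set by keratin UMIs of each cell, beside 12.5%, 13.6% and 17.9% of all genes. The luminal count was 4 at resolution 2, with libraries clustered apart, with the keratin gate and with unnamed clusters 5 and 19 counted as luminal, beside 23.9%, 26.9%, 21.04% and 25.4%. The basal count was 3 when each cell's CPM was averaged, beside 11.98%. With 2-fold asked of the interval bound nearest to 1, the counts were 5, 4 and 2, beside 4.98%, 10.3% and 3.91% of all genes. The suprabasal log2 ratio of Rbp2, -1.14, reversed to 0.44 with the stricter filter, 0.60 at resolution 0.5, 0.39 at resolution 2, 0.43 with the keratin gate, 0.90 within cluster 0 and 0.31 within cluster 6. That of Crabp2 in basal cells, -1.29, reversed to 0.64 within cluster 3. The cause was not tested. Over 14 alternatives to the cells or the scaling, Adh7, Adh1 and Dhrs9 kept a positive and Crabp2 a negative log2 ratio in every layer, but sizes varied. The alternatives that counted further clusters in a layer or left out cluster 25 changed no cells of the other layers. In those other layers the sign was fixed in advance, and leaving out shared barcodes removed few cells. Adh1 ranged from 0.21 to 2.99 in luminal and from 0.76 to 4.73 in basal cells, Adh7 from 1.71 to 3.83 and from 1.501 to 3.79, Dhrs9 from 2.99 to 6.72 in suprabasal and from 1.86 to 3.60 in luminal cells, and Crabp2 from -1.52 to -0.41 in suprabasal cells. Basal Rbp2 ranged from -5.18 to -1.29 and luminal Rdh10 from 0.02 to 0.84. Ratios whose intervals include 1 changed sign, from -2.05 to 0.99 for suprabasal and -0.81 to 0.43 for basal Rdh10, -0.41 to 0.82 for luminal Rbp2 and -0.95 to 1.76 for basal Aldh1a3. Without the minimum of 20 UMIs, 35.1% of luminal, 36.4% of suprabasal and 22.6% of basal genes passed 2-fold. The alternatives that counted unnamed clusters in a layer, left out cluster 25 or shared barcodes, thinned to 500 UMIs or worked within clusters were chosen after seeing the data. Depth limits the control luminal cells (801810 UMIs) and background estimates from neutrophil-like cells (median 581.5 and 776 UMIs). No paired analysis was possible because each group has 1 library.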

Other observations

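The shallow unnamed cluster 11 (148 control and 849 progesterone cells, median 854.5 and 1254 UMIs), led by Prap1 and Tff1, had Rbp2 and Adh7 among its 10 leading genes although neither took part in the clustering. Adh7 stood there at 86.6 CPM [48.5 to 143] without and 182 CPM [160 to 205] with progesterone, and Rbp2 at 17.3 CPM (3 UMIs) and 75.1 CPM [61.6 to 90.8].

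The cycling cluster 12 (234 control and 148 progesterone cells, led by Top2a and Mki67) had Adh7 at 4.55 CPM [2.08 to 8.65] without and 90.2 CPM [74.6 to 108] with progesterone, 19.8-fold higher [10.1 to 44.4], Rbp2 at 23.8 and 5.35 CPM, and Crabp2 at 68.8 and 40.5 CPM.

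Fibroblast-like cells had Adh1 at 66.9 CPM [24.6 to 146] and 89.6 CPM [62.4 to 125], from 6 and 35 UMIs.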
